A study of Mus musculus with 10 samples.

Results

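Transcripts of 10 genes of the Bcl2 family were followed in microglia, the resident macrophages of the brain, from adult brain and from cultured systems. The genes were taken by symbol from the count tables of all 10 libraries, and all 10 were found among the 18292 symbols that the tables listed. By role they were 5 anti-apoptotic genes (Bcl2, Bcl2a1b, Bcl2a1d, Bcl2l1 and Mcl1), 2 effectors (Bax and Bak1) and 3 BH3-only genes (Bcl2l11, Bbc3 and Pmaip1). All 10 passed the filter on low counts, as did 12157 genes in all.

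The proteins of this family set whether the outer membrane of the mitochondrion stays closed. Bax and Bak1 form pores that release cytochrome c and start the caspase cascade, the anti-apoptotic proteins hold them and the BH3-only proteins in check, and the BH3-only proteins are the sensors that relieve that check under stress. In myeloid cells Mcl1 and the Bcl2a1 proteins are short-lived survival factors whose genes respond to inflammatory and growth factor signals, and microglia depend on signalling through the Csf1 receptor to survive.

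The study asked how close microglia in cultured brain slices come to microglia taken directly from the adult brain. Single cells were sequenced from 5 groups of 2 libraries each, all of strain C57BL/6. The adult group came from brain tissue of untreated mice, for which the methods give an age of 10 to 15 weeks. The in vitro group came from mixed glial cultures of cortex from pups at postnatal day 2, with the floating cells collected at day 22 (3 weeks in the labels). The slice groups came from brain slices of pups at postnatal days 1 to 4, kept in culture for 1 day, 1 week or 3 weeks. Several slices were pooled for a sample where needed, and human PDGF, which the methods name for no other group, was given with each change of the slice medium. Live cells were sorted as CD11b high and CD45 intermediate and loaded on the 10x Genomics 3' kit (version 2). Donor age therefore differed between the adult and the cultured groups and cannot be told apart from culture, nor can the PDGF from slice culture. The in vitro and slice cultures also differed in tissue, medium, temperature and collection of the cells, which cannot be told apart from the system. Among the slice groups, time in culture cannot be told apart from age since birth. The labels do not tie libraries to separate animals, so p-values measure the spread between these libraries, which may be technical.

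After the filters on cells, 19059 cells were kept of 19637 barcodes, between 61 (slice 1 week replicate 2) and 3799 (adult replicate 1) per library, with median depths from 1858 to 13966 UMIs (unique molecular identifiers, each a counted transcript). Total UMIs per library ran from 385373 to 39689540, and the slice 1 week group, with 148 and 61 cells, had the fewest. The methods of the study also set outlier cells aside with t-SNE, which was not repeated here. For its slice 1 week samples the study counts fewer microglia than the 148 and 61 cells kept here, and why was not tested. Slice 1 week values may therefore include cells that the study did not count as microglia. Any pair of libraries shared at most 21 cell barcodes. All 10 microglial markers were detected in every library, but their summed level was 41390 and 40440 CPM in adult against 5345 to 19870 CPM in the cultured libraries. The 10 neutrophil markers summed to 7773 and 23080 CPM in slice 1 day and to 41330 and 955 CPM in slice 1 week, against at most 8.88 CPM elsewhere. Monocyte markers summed to 226, 663 and 1096 CPM in the 3 libraries richest in neutrophil markers, and to at most 9.07 CPM elsewhere. Neuronal markers summed to 330 and 537 CPM in slice 1 week, against at most 41.2 CPM elsewhere. The part of these other cells in each value was not tested, apart from the fits without neutrophil-like cells. A pair of libraries, adult replicate 1 and slice 3 weeks replicate 1, carried another study label than the rest.

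Levels are CPM, the UMIs of a gene summed over the cells of a library and scaled to library size with TMM factors, given as mean ± SD of the 2 libraries. Sums over marker lists, immediate early genes among them, and levels within classes of cells are CPM of total UMIs without TMM factors. These are on another scale than the levels of libraries. A gene was called where the edgeR quasi-likelihood test gave a false discovery rate under 0.05 over all genes and a fold change above 1.5. With 2 libraries against 2, no permutation test can go below 0.333, and shares and other values with 1 number per library are given without a test. A summed count does not tell more cells with a transcript from more transcripts per cell.

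Against adult, 5 of the 10 genes were called higher in vitro, where 22.4% of all genes were, and 2 were called lower, where 28.5% were. At slice 1 day 7 were called higher and 0 lower, with 24.9% and 25.3% of all genes called in those directions. At slice 1 week 5 were higher and 1 lower, against 15% and 13.6%. At slice 3 weeks 6 were higher and 0 lower, against 17.9% and 17.5%. These 4 comparisons use the same adult libraries. Between the cultures, 4 genes were higher and 3 lower in vitro than at slice 3 weeks, against 13.3% and 19.9% of all genes. From slice 1 day to slice 3 weeks 1 gene was higher and 2 were lower, against 13.9% and 12.8%. Of the members below adult, 0 reached an unadjusted p under 0.05 at slice 1 day and 1 (Bcl2l1) did at slice 3 weeks by edgeR, and DESeq2 called 0 in both. Within the libraries of the larger study label alone, the counts higher and lower were 6 and 2 in vitro, 6 and 0 at slice 1 day, 5 and 1 at slice 1 week and 5 and 1 at slice 3 weeks, each against adult. Of the 12535 genes in those fits, 2760 were called higher and 3226 (25.7%) lower in vitro, 23.7% and 23.0% at slice 1 day, 14.3% and 12.6% at slice 1 week and 17.8% and 16.1% at slice 3 weeks. These fits set 1 adult library against each group, and 1 slice 3 weeks library against 1 adult library, so that the spread came from the groups with 2 libraries and the lone libraries were assumed to vary like them.

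**Figure D1:**
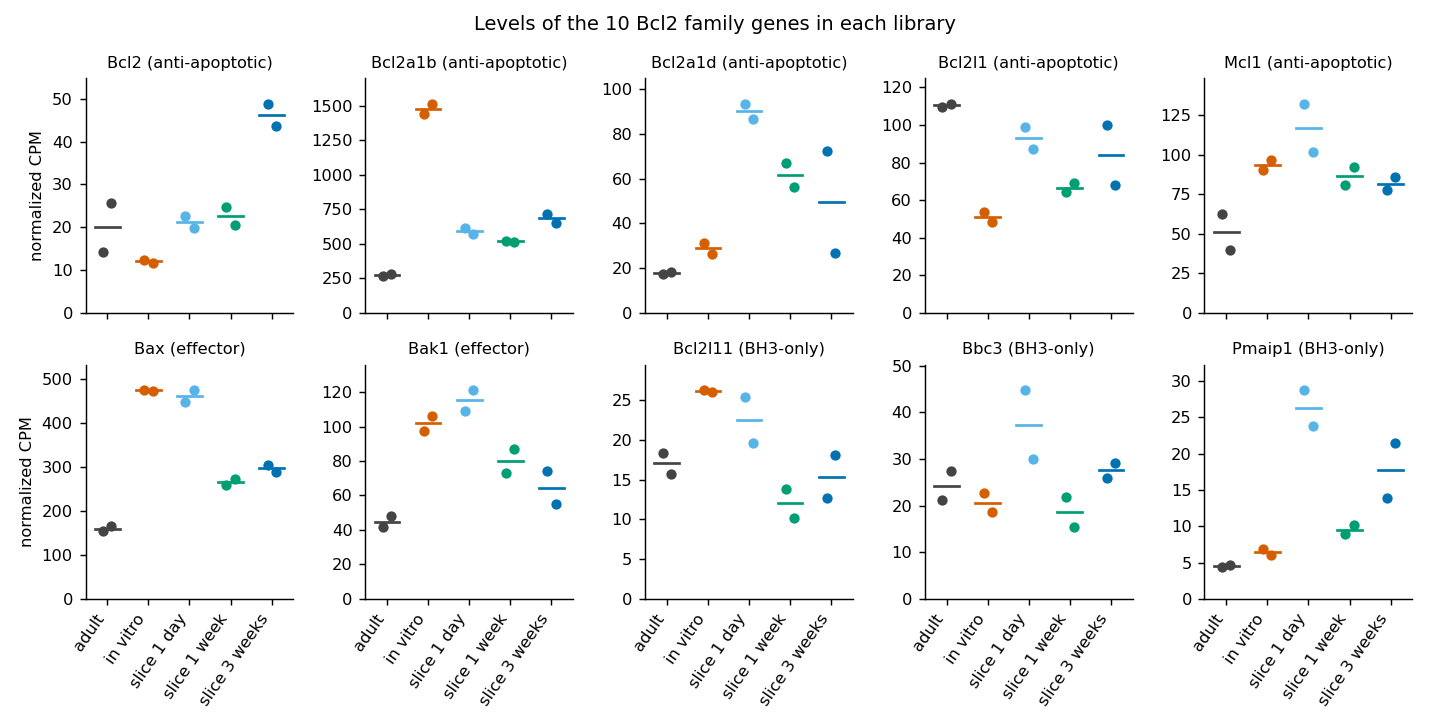
Each panel shows the level of a gene in normalized CPM (y axis, from 0) in the 2 libraries (points) and their mean (line) of each group (x axis). Bcl2a1b stands at 1438 and 1515 CPM in vitro against 267 and 283 CPM in adult, Bax is highest in vitro and at slice 1 day, and Bcl2 is highest at slice 3 weeks, at 43.6 and 48.9 CPM.

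Bcl2a1b, which encodes a copy of the A1 survival protein, had the highest count of the anti-apoptotic genes in every library. Its level was 267 and 283 CPM in adult, 1438 and 1515 CPM in vitro, 613 and 569 CPM at slice 1 day, 521 and 514 CPM at slice 1 week, and 718 and 649 CPM at slice 3 weeks. No 2 groups overlapped, with in vitro at the top and adult at the bottom. The difference from adult was a log2 fold change of 2.42 (SE 0.14, edgeR adjusted p = 3.89e-07) in vitro, 1.10 (SE 0.14, adjusted p = 8.58e-05) at slice 1 day, 0.91 (SE 0.14, adjusted p = 0.000797) at slice 1 week and 1.31 (SE 0.14, adjusted p = 6.21e-05) at slice 3 weeks. In vitro microglia also stood 1.11 log2 units (SE 0.14, edgeR adjusted p = 0.000165) above slice 3 weeks, whereas slice 3 weeks and slice 1 day were not called apart (log2 fold change 0.21, SE 0.13, edgeR adjusted p = 0.258). All of these calls held when any single library was left out, with log2 fold changes between 2.42 and 2.58 in vitro against adult. Shares of cells were taken over cells with at least 1800 UMIs, each thinned to that number, which left out 413 of 3799 and 1618 of 3527 adult cells and 0 in vitro cells. Among them 83.0% (95% exact interval 81.4 to 84.4%) and 85.3% (83.9 to 86.6%) of in vitro cells held a Bcl2a1b UMI, against 38.5% (36.8 to 40.1%) and 42.7% (40.5 to 44.95%) of adult cells. Over all cells and without thinning these shares were 99.3% and 99.3% in vitro and 55.8% and 44.2% in adult. The intervals cover counting error only, and the share that free RNA gives to cells without the transcript was not measured.

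Bcl2a1d, a further copy of the same survival gene, had another order of groups. It was lowest in adult at 17.5 and 18.0 CPM, followed by in vitro at 31.2 and 26.3 CPM. It reached 93.6 and 86.6 CPM at slice 1 day and 67.2 and 56.3 CPM at slice 1 week. The 2 slice 3 weeks libraries stood at 72.3 and 26.7 CPM, the lower of them within the in vitro range. Against adult it was called higher at slice 1 day (log2 fold change 2.34, SE 0.36, edgeR adjusted p = 0.000372), slice 1 week (1.83, SE 0.43, adjusted p = 0.00995) and slice 3 weeks (1.46, SE 0.36, adjusted p = 0.00858), and it was not called in vitro (0.70, SE 0.35, adjusted p = 0.114). The call at slice 1 week was lost without slice 1 week replicate 1 (1.69, edgeR adjusted p = 0.187), and that at slice 3 weeks without adult replicate 1 (1.49, edgeR adjusted p = 0.0507). The slice 3 weeks difference ran from 0.63 to 2.08 as single libraries were left out, and was 0.57 under the fold threshold between the 1 slice 3 weeks and the 1 adult library of the larger study label. The in vitro difference was called with the study label as a covariate (1.08, edgeR adjusted p = 0.0129), with no filter on low counts (0.86, adjusted p = 2.73e-05), within the larger study label (0.67, adjusted p = 0.00878, against 1 adult library) and without slice 3 weeks replicate 1 (0.82, edgeR adjusted p = 0.000283) or slice 3 weeks replicate 2 (0.82, edgeR adjusted p = 0.000313). Slice 3 weeks was not called against slice 1 day (−0.89, SE 0.34, edgeR adjusted p = 0.0744), with estimates from −1.75 to −0.30 as single libraries were left out. That difference was called without slice 3 weeks replicate 1 (−1.75, edgeR adjusted p = 9.03e-05), with the study label as a covariate (−1.39, adjusted p = 0.00921), within the larger study label (−1.75, adjusted p = 0.000203, for 1 slice 3 weeks library), with the replicate block (−0.97, adjusted p = 0.0325) and with no filter on low counts (−0.85, adjusted p = 5.72e-05). In vitro was not called against slice 3 weeks (−0.76, SE 0.34, edgeR adjusted p = 0.1), but was without slice 3 weeks replicate 2 (−1.27, adjusted p = 0.000184) and with no filter on low counts (−0.66, adjusted p = 0.00204).

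The mouse genome holds several near-identical Bcl2a1 genes on chromosome 9. In GRCm38.p6, Bcl2a1d lies on the minus strand at chr9:88723288-88731850, Bcl2a1a on the plus strand at chr9:88956920-88962416 and Bcl2a1b on the plus strand at chr9:89199273-89207838. Their promoters are shown because the 3 genes differed in their pattern across the groups while these stretches are almost the same. Each stretch runs from 250 bases before the start of the gene to 50 bases after it, taken from RefSeq on GRCm38.p6, read 5′ to 3′ on the strand of the gene. Capitals mark a match to the AP-1 motif TGANTCA, searched on both strands. The windows are chr9:88956670-88956969 for Bcl2a1a, chr9:89199023-89199322 for Bcl2a1b and chr9:88731801-88732100 for Bcl2a1d.
Bcl2a1a: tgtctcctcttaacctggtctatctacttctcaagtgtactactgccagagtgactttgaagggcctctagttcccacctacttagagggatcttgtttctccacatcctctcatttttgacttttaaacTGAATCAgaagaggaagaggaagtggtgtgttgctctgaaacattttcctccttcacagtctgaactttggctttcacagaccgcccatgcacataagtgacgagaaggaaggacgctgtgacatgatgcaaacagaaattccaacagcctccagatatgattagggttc
Bcl2a1b: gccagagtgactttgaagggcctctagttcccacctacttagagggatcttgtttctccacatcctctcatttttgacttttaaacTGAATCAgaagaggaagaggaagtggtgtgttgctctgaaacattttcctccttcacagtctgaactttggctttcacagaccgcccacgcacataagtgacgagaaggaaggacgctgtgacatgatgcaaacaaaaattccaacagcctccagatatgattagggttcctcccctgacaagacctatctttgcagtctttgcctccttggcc
Bcl2a1d: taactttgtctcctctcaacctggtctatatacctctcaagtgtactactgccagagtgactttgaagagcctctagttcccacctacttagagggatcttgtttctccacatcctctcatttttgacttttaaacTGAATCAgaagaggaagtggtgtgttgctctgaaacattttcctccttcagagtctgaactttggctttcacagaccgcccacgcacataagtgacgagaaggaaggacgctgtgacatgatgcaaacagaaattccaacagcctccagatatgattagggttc
Bcl2a1a and Bcl2a1b were identical at 254 of 256 aligned bases (99.2%), Bcl2a1a and Bcl2a1d at 288 of 294 (98.0%), and Bcl2a1b and Bcl2a1d at 247 of 250 (98.8%), with 0, 6 and 6 bases in gaps. The AP-1 match begins 120, 164 and 114 bases before the start in Bcl2a1a, Bcl2a1b and Bcl2a1d, and the annotated start of Bcl2a1b is shifted by 44 bases relative to that of Bcl2a1a. Of 32851 mouse promoters of this length, 7.81% hold an AP-1 match. None of the 3 windows holds a match to the NF-kB consensus, which 4.51% of promoters do. A match describes the letters in the window and is not evidence of binding.

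The share of the UMIs of all 4 Bcl2a1 genes that was counted for each copy differed between the groups. Bcl2a1a took 15.8% and 16.7% in adult, 9.97% and 8.98% at slice 1 day, 4.94% and 4.27% at slice 1 week, 4.71% and 5.19% at slice 3 weeks, and 0.504% and 0.267% in vitro. Bcl2a1b took 78.3% and 78.3% in adult and 97.3% and 98.0% in vitro. Bcl2a1d took 11.9% and 11.9% at slice 1 day, against 5.13% and 4.98% in adult. Bcl2a1c, the most distant copy, had between 1 and 55 UMIs in a library.

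**Figure D2:**
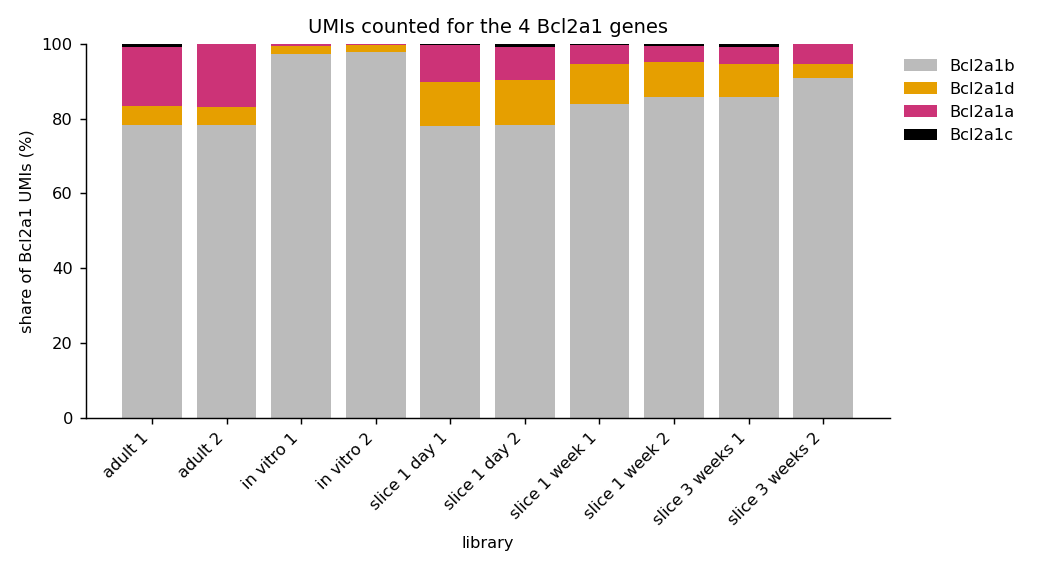
Bars show, for each library (x axis), the share of Bcl2a1 UMIs in percent (y axis) that was counted for each of the 4 copies, stacked to 100%. The Bcl2a1a share is largest in adult, at 15.8% and 16.7%, and smallest in vitro, at 0.504% and 0.267%.

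The level of Bcl2a1a was 53.9 and 60.3 CPM in adult and 7.45 and 4.13 CPM in vitro. It was thus called lower in vitro, by a log2 fold change of −3.30 (SE 0.24, edgeR adjusted p = 1.96e-06), in the same libraries in which Bcl2a1b was called higher. Against slice 3 weeks, at 39.3 and 37.0 CPM, the in vitro libraries were lower by −2.72 (SE 0.24, edgeR adjusted p = 1.95e-05). At slice 1 day the gene stood at 78.4 and 65.2 CPM and was not called against adult (log2 fold change 0.33, SE 0.22, edgeR adjusted p = 0.237). Slice 1 week was called below adult (−0.98, SE 0.31, edgeR adjusted p = 0.0361), a call that was lost without adult replicate 1, adult replicate 2, slice 1 day replicate 2, slice 1 week replicate 1 or slice 1 week replicate 2 (from −1.13 to −0.91, edgeR adjusted p from 0.0552 to 0.221). It was also lost with the study label as a covariate (−0.99, edgeR adjusted p = 0.0583), within the larger study label (−1.06, adjusted p = 0.0716, against 1 adult library) and with cells thinned to 1800 UMIs (−0.84, adjusted p = 0.247). Slice 3 weeks was not called against adult (−0.58, SE 0.22, edgeR adjusted p = 0.0603), but was with library size alone (−0.79, adjusted p = 0.0195). Slice 3 weeks was called below slice 1 day (−0.91, SE 0.23, edgeR adjusted p = 0.0133), and this was lost without slice 1 day replicate 1 (−0.78, adjusted p = 0.0794) or slice 3 weeks replicate 2 (−0.85, adjusted p = 0.0576).

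The split between copies depends on which reads can be told apart. In the last 500 bases of the transcripts, where 3' reads fall, 66.7% of the 50-base windows of Bcl2a1a, 66.7% of those of Bcl2a1b and 87.8% of those of Bcl2a1d also occur in another copy, and reads that match several copies are not counted. The count of each copy is therefore uncertain, and the 4 copies were also fitted as 1 sum. The sum was higher than adult by 2.10 log2 units (SE 0.15, edgeR adjusted p = 1.24e-06) in vitro, 1.11 (SE 0.14, adjusted p = 0.00011) at slice 1 day, 0.80 (SE 0.14, adjusted p = 0.00224) at slice 1 week and 1.14 (SE 0.14, adjusted p = 0.000171) at slice 3 weeks. Mean levels of the sum were 352 ± 14.5 CPM in adult, 1512 ± 48.5 CPM in vitro, 756 ± 42.7 CPM at slice 1 day, 610 ± 15.5 CPM at slice 1 week and 774 ± 86.2 CPM at slice 3 weeks (SD, n = 2 each). Exons of Bcl2a1b overlap the annotated gene Gm29094 on the same strand, which held at most 3 UMIs in a library. Reads that fit both genes are not counted, so this number does not show how many Bcl2a1b lost.

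Bcl2, the founding survival gene of the family (chr1:106538176-106714290, minus strand), moved apart in the 2 culture systems. Its level was 14.1 and 25.8 CPM in adult, 12.4 and 11.6 CPM in vitro, 22.5 and 19.8 CPM at slice 1 day, 24.7 and 20.5 CPM at slice 1 week, and 48.9 and 43.6 CPM at slice 3 weeks. Both slice 3 weeks libraries lay above all others, and both in vitro libraries below all others. Slice 3 weeks was called higher than adult (log2 fold change 1.23, SE 0.24, edgeR adjusted p = 0.00241) and higher than slice 1 day (1.14, SE 0.24, edgeR adjusted p = 0.0067). In vitro was called lower than slice 3 weeks (−1.94, SE 0.24, edgeR adjusted p = 0.000167) and lower than adult (−0.71, SE 0.24, edgeR adjusted p = 0.0265). The in vitro against adult call was lost without adult replicate 2, either in vitro replicate, slice 1 day replicate 2, either slice 1 week replicate or either slice 3 weeks replicate, with log2 fold changes from −0.64 to −0.24 and edgeR adjusted p from 0.0512 to 0.357. It was also lost with DESeq2 (−0.66, adjusted p = 0.0503), with all barcodes (−0.60, edgeR adjusted p = 0.0535), with thinned cells (−0.49, adjusted p = 0.172) and, by the fold threshold, with no filter on low counts (−0.54, adjusted p = 0.0254). The difference between slice 1 day and slice 3 weeks was not called without slice 1 day replicate 2 (1.04, edgeR adjusted p = 0.0774) or on UMIs per cell with no scaling for depth (0.70, adjusted p = 0.185). The calls of slice 3 weeks against adult and of in vitro against slice 3 weeks held without any single library.

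Bcl2l1 encodes Bcl-xL, a survival protein of the mitochondrial membrane (chr2:152758732-152833803, minus strand), and was the only anti-apoptotic gene with its highest mean in adult. It stood at 109.5 and 111 CPM in adult, 53.7 and 48.5 CPM in vitro, 99.1 and 87.3 CPM at slice 1 day, 64.2 and 69.1 CPM at slice 1 week, and 99.995 and 67.9 CPM at slice 3 weeks. The in vitro libraries were below all others, while the slice 3 weeks libraries overlapped both other slice groups. In vitro was called lower than adult (log2 fold change −1.11, SE 0.18, edgeR adjusted p = 4e-04), and this held without any single library. Slice 1 week was also called lower (−0.74, SE 0.21, edgeR adjusted p = 0.023), but not without either adult or either slice 1 week replicate (from −0.82 to −0.65, edgeR adjusted p from 0.0582 to 0.243), with the study label as a covariate (−0.61, adjusted p = 0.0521) or with thinned cells (−1.01, adjusted p = 0.0545). At slice 1 day (−0.25, SE 0.18, edgeR adjusted p = 0.26) and slice 3 weeks (−0.40, SE 0.18, edgeR adjusted p = 0.0974) it was not called, though at slice 3 weeks it was without slice 3 weeks replicate 1 (−0.66, edgeR adjusted p = 0.00723) with library size alone (−0.60, adjusted p = 0.0275) and within the larger study label (−0.71, adjusted p = 0.0126, 1 library against 1). In vitro was called lower than slice 3 weeks (−0.71, SE 0.18, edgeR adjusted p = 0.0101), but not without in vitro replicate 1 (−0.71, adjusted p = 0.067), in vitro replicate 2 (−0.57, adjusted p = 0.141) or slice 3 weeks replicate 1 (−0.33, adjusted p = 0.104). With the study label as a covariate that difference was under the fold threshold (−0.56, edgeR adjusted p = 0.0332), as it was within the larger study label (−0.41, adjusted p = 0.0468, against 1 slice 3 weeks library). Counted as UMIs per cell, with no scaling for depth, the in vitro difference from adult turned to 1.07 for Bcl2l1 and 1.55 for Bcl2, both below the median of all genes on that scale, 2.04.

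Mcl1, which encodes a short-lived survival protein (chr3:95656944-95663179, plus strand), was lowest in adult at 62.7 and 39.9 CPM. It stood at 90.5 and 97.0 CPM in vitro, 132 and 102 CPM at slice 1 day, 81.0 and 92.1 CPM at slice 1 week, and 77.6 and 85.9 CPM at slice 3 weeks. Every cultured library lay above both adult libraries. The gene was called higher than adult in all 4 cultured groups, with log2 fold changes of 0.86 (SE 0.21, edgeR adjusted p = 0.00483) in vitro, 1.18 (SE 0.21, adjusted p = 0.000904) at slice 1 day, 0.73 (SE 0.24, adjusted p = 0.0417) at slice 1 week and 0.67 (SE 0.21, adjusted p = 0.0268) at slice 3 weeks. The slice 1 day call held when any single library was left out (from 0.90 to 1.59), and the others did not. Without adult replicate 2 the difference was 0.58 in vitro (edgeR adjusted p = 0.0398, under the fold threshold), 0.44 at slice 1 week (adjusted p = 0.187) and 0.38 at slice 3 weeks (adjusted p = 0.187). The slice 3 weeks call was also lost without slice 3 weeks replicate 2 (0.65, edgeR adjusted p = 0.0777). The slice 1 week call was also lost without either in vitro, slice 1 week or slice 3 weeks replicate (from 0.62 to 0.87, edgeR adjusted p from 0.0512 to 0.169). In slice 1 day replicate 1, the 68 neutrophil-like cells (over 2% of UMIs in neutrophil markers) held Mcl1 at 361 CPM against 127 CPM in the other 450 cells. In slice 1 day replicate 2 the values were 126 CPM in 110 such cells and 102 CPM in the other 904. Slice 3 weeks was not called against slice 1 day (−0.51, SE 0.21, edgeR adjusted p = 0.0864), but was with thinned cells (−0.73, adjusted p = 0.0352), without cycling cells (−0.61, adjusted p = 0.0435) and on UMIs per cell (−0.94, adjusted p = 0.0473). With library size alone Mcl1 was not called in vitro (0.56, edgeR adjusted p = 0.036, under the fold threshold), at slice 1 week (0.53, adjusted p = 0.114) or at slice 3 weeks (0.47, adjusted p = 0.0904), and with thinned cells it was not called at slice 1 week (0.78, adjusted p = 0.158). With the neutrophil-like cells left out the slice 1 day call was kept and the slice 1 week call was lost (0.68, edgeR adjusted p = 0.0558). Immediate early transcripts, which rise during cell isolation, summed to 849 and 836 CPM in adult, 963 and 810 CPM at slice 1 day, 364 and 397 CPM at slice 1 week, 690 and 562 CPM at slice 3 weeks and 311 and 270 CPM in vitro, and their part in the Mcl1 values was not tested.

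Bax, the cytosolic pore former (chr7:45461695-45466903, minus strand), was called higher than adult in all 4 cultured groups. Its level was 154 and 166 CPM in adult, 477 and 474 CPM in vitro, 449 and 476 CPM at slice 1 day, 260 and 274 CPM at slice 1 week, and 305 and 289 CPM at slice 3 weeks. In vitro and slice 1 day overlapped at the top, and adult was below all other libraries. The log2 fold change over adult was 1.57 (SE 0.13, edgeR adjusted p = 5.06e-06) in vitro, 1.53 (SE 0.13, adjusted p = 9.72e-06) at slice 1 day, 0.74 (SE 0.14, adjusted p = 0.00259) at slice 1 week and 0.89 (SE 0.13, adjusted p = 0.000471) at slice 3 weeks. From slice 1 day to slice 3 weeks it was called lower (−0.64, SE 0.13, edgeR adjusted p = 0.00517), but not without slice 1 day replicate 2 (−0.59, edgeR adjusted p = 0.0547). In vitro it was called higher than slice 3 weeks (0.68, SE 0.13, edgeR adjusted p = 0.00255). The slice 1 week call was lost with thinned cells (0.62, edgeR adjusted p = 0.0544) and, by the fold threshold, with library size alone (0.53, adjusted p = 0.019), as was the in vitro against slice 3 weeks call (0.57, adjusted p = 0.00959). Exons of Bax overlap the annotated gene Gm45808 on the same strand.

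Bak1, the pore former that sits in the mitochondrial outer membrane (chr17:27019812-27028627, minus strand), had its highest level at slice 1 day. It stood at 41.7 and 48.0 CPM in adult, 97.6 and 106 CPM in vitro, 109 and 121 CPM at slice 1 day, 73.1 and 87.0 CPM at slice 1 week, and 74.1 and 54.8 CPM at slice 3 weeks. Again no cultured library fell within the adult range. It was called higher than adult in vitro (log2 fold change 1.18, SE 0.17, edgeR adjusted p = 0.000189), at slice 1 day (1.37, SE 0.17, adjusted p = 1e-04) and at slice 1 week (0.81, SE 0.20, adjusted p = 0.0115). At slice 3 weeks it passed the test but not the fold threshold (0.52, SE 0.17, edgeR adjusted p = 0.0328), and it was called without slice 1 day replicate 2 (0.59, adjusted p = 0.0304) or slice 3 weeks replicate 2 (0.78, adjusted p = 0.00636), and with no filter on low counts (0.59, adjusted p = 0.00865). It was called lower at slice 3 weeks than at slice 1 day (−0.85, SE 0.17, edgeR adjusted p = 0.00481) and higher in vitro than at slice 3 weeks (0.66, SE 0.17, adjusted p = 0.0106). The slice 1 week call was lost without adult replicate 1 (0.75, edgeR adjusted p = 0.0521), slice 1 week replicate 1 (0.99, adjusted p = 0.0546) or slice 1 week replicate 2 (0.67, adjusted p = 0.0726), with thinned cells (0.63, adjusted p = 0.197) and with library size alone (0.60, adjusted p = 0.0525). The slice 3 weeks against slice 1 day call was lost without slice 1 day replicate 2 (−0.76, edgeR adjusted p = 0.052), and the in vitro against slice 3 weeks call without in vitro replicate 2 (0.68, adjusted p = 0.0616) or slice 3 weeks replicate 2 (0.52, adjusted p = 0.0449, under the fold threshold) or with library size alone (0.56, adjusted p = 0.0328, under the fold threshold).

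Pmaip1 encodes Noxa, a BH3-only protein that binds Mcl1 and A1 and is a target of p53. It was the scarcest of the 10 transcripts in adult at 4.395 and 4.64 CPM, from 60 and 36 UMIs. It stood at 6.87 and 6.01 CPM in vitro, 28.8 and 23.8 CPM at slice 1 day, 8.89 and 10.2 CPM at slice 1 week, and 14.0 and 21.5 CPM at slice 3 weeks. No 2 groups overlapped, and slice 1 day was at the top. It was called higher than adult at slice 1 day (log2 fold change 2.53, SE 0.25, edgeR adjusted p = 2.37e-05) and at slice 3 weeks (2.00, SE 0.25, adjusted p = 0.00017). In vitro (0.52, SE 0.25, edgeR adjusted p = 0.0994) and at slice 1 week (1.05, SE 0.43, adjusted p = 0.0937), where the libraries held 9 and 4 UMIs, it was not called. In vitro it was called without slice 3 weeks replicate 1 (0.64, edgeR adjusted p = 0.0125) or slice 3 weeks replicate 2 (0.64, adjusted p = 0.0132), and with all barcodes (0.67, adjusted p = 0.0363), thinned cells (1.05, adjusted p = 0.0172) or no filter on low counts (0.68, adjusted p = 0.0287). It was called lower in vitro than at slice 3 weeks (−1.48, SE 0.22, edgeR adjusted p = 0.00064), a call that was lost on UMIs per cell with no scaling for depth (−0.38, adjusted p = 0.412). Slice 3 weeks was not called against slice 1 day (−0.54, SE 0.23, edgeR adjusted p = 0.0964), but was without slice 3 weeks replicate 2 (−0.88, adjusted p = 0.0177). In slice 1 day replicate 1, the 68 neutrophil-like cells held Pmaip1 at 93.2 CPM (16 UMIs) against 26.9 CPM in the other cells, and in replicate 2 the values were 20.1 and 24.6 CPM. The slice 1 day call was kept with the neutrophil-like cells left out.

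Bcl2l11 encodes Bim, the BH3-only protein that responds to loss of growth factors (chr2:128126038-128162547, plus strand). It stood at 18.4 and 15.7 CPM in adult, 26.3 and 26.1 CPM in vitro, 25.4 and 19.6 CPM at slice 1 day, 13.8 and 10.2 CPM at slice 1 week, and 12.7 and 18.1 CPM at slice 3 weeks. The in vitro libraries were above all others. It was called higher in vitro than in adult (log2 fold change 0.62, SE 0.20, edgeR adjusted p = 0.024) and than at slice 3 weeks (0.75, SE 0.20, edgeR adjusted p = 0.0145). The former call was lost without adult replicate 2 (0.51, edgeR adjusted p = 0.14), and both were lost without in vitro replicate 1 (0.73 and 0.82, adjusted p = 0.0505 and 0.0518) or in vitro replicate 2 (0.74 and 0.84, adjusted p = 0.0509 and 0.0523). The call against adult was also lost with the study label as a covariate (0.53, edgeR adjusted p = 0.0736), thinned cells (0.57, adjusted p = 0.0724) or library size alone (0.31, adjusted p = 0.194), and that against slice 3 weeks was under the fold threshold within the larger study label (0.53, adjusted p = 0.0331, against 1 slice 3 weeks library). It was not called against adult at slice 1 day (0.38, SE 0.21, edgeR adjusted p = 0.159), slice 1 week (−0.43, SE 0.34, adjusted p = 0.374) or slice 3 weeks (−0.13, SE 0.21, adjusted p = 0.652). Slice 3 weeks was not called against slice 1 day (−0.506, SE 0.212, edgeR adjusted p = 0.0964), but was without slice 3 weeks replicate 2 (−0.785).

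Bbc3 encodes Puma, the BH3-only protein named for its induction by p53 (chr7:16308398-16318334, plus strand), and was called in 1 of 6 comparisons. It stood at 21.2 and 27.3 CPM in adult, 22.6 and 18.6 CPM in vitro, 44.8 and 29.9 CPM at slice 1 day, 21.7 and 15.4 CPM at slice 1 week, and 25.9 and 29.2 CPM at slice 3 weeks. Apart from slice 1 day, neighbouring groups overlapped. Slice 1 day was called higher than adult (log2 fold change 0.61, SE 0.22, edgeR adjusted p = 0.038), and this was lost without adult replicate 1 (0.48, adjusted p = 0.191) or slice 1 day replicate 1 (0.31, adjusted p = 0.314), with the study label as a covariate (0.47, adjusted p = 0.106), within the larger study label (0.41, adjusted p = 0.192, against 1 adult library) and with library size alone (0.49, adjusted p = 0.0939). None of the other 5 comparisons was called, with log2 fold changes between −0.42 and 0.20.

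**Figure D3:**
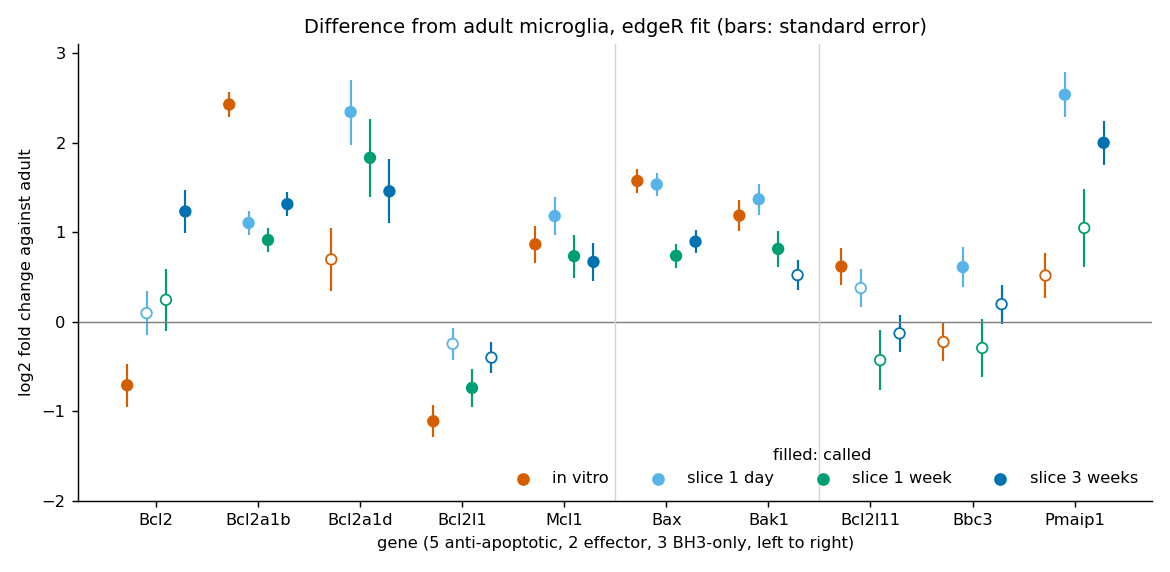
Points show the log2 fold change of each gene (x axis) in each cultured group against adult (y axis), with bars for the standard error of the edgeR fit and filled points for called genes. Bax and Mcl1 lie above 0 in all 4 groups, and Bcl2l1 lowest in vitro (−1.11), where it and Bcl2 (−0.71) would turn to 1.07 and 1.55 if counted as UMIs per cell.

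As a share of the UMIs counted for the 10 genes, the anti-apoptotic genes took 65.5 ± 1.14% in adult, 72.5 ± 0.60% in vitro, 57.8 ± 2.17% at slice 1 day, 66.1 ± 0.90% at slice 1 week and 69.04 ± 1.63% at slice 3 weeks (SD, n = 2 each). Slice 1 day was lowest and in vitro highest, with no overlap of either with another group. Without Bcl2a1b and Bcl2a1d, the anti-apoptotic share was 42.1 ± 2.36% in adult, 19.9 ± 0.02% in vitro, 25.8 ± 2.92% at slice 1 day, 31.2 ± 0.26% at slice 1 week and 33.4 ± 1.47% at slice 3 weeks. The order of adult and in vitro thus turned round with the 2 Bcl2a1 genes left out. The shares count transcript ends, which do not scale with transcript length, and say nothing of protein.

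**Figure D4:**
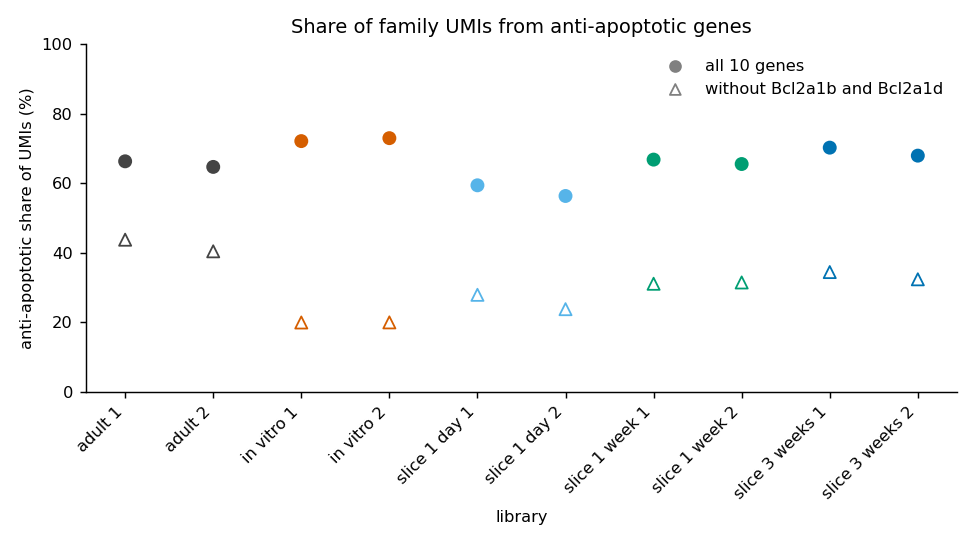
For each library (x axis), filled circles give the share of the 10 genes' UMIs that came from the anti-apoptotic genes, and open triangles the share with Bcl2a1b and Bcl2a1d left out (y axis, percent). In vitro is highest among the circles, at 72.1% and 72.9%, and lowest among the triangles, at 19.9% and 19.9%.

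Within the slice 3 weeks libraries, cells were set apart by whether they held a UMI of P2ry12, a receptor typical of resting microglia, after thinning to 1800 UMIs, which left out 23 and 51 shallower cells. These are values of cells within a library and carry no test. Bcl2a1b stood at 525 CPM in 728 cells with a P2ry12 UMI and at 1060 CPM in 402 cells without it in replicate 1, and at 454 and 740 CPM in 2029 and 1660 cells of replicate 2. Bcl2a1d stood at 44.3 against 123 CPM and at 11.2 against 34.1 CPM. Both were thus lower in cells with a P2ry12 UMI in both libraries, with ratios of 0.495 and 0.613 for Bcl2a1b and 0.360 and 0.329 for Bcl2a1d. Apart from Bcl2 and Mcl1, the other members also had ratios below 1 in both libraries, among them Bbc3 at 0.648 and 0.748 and Bax at 0.746 and 0.749. In replicate 1, the ratios of Bcl2l11 (13 UMIs in cells with P2ry12 and 9 without) and Pmaip1 (15 and 13 UMIs) rest on few counts. Bcl2 had the reverse order, with ratios of 1.18 (79 and 37 UMIs) and 1.28. Mcl1 gave 0.698 in replicate 1 and 1.10 in replicate 2, so that the libraries did not share a direction. Cells with a UMI of Gpnmb, a transcript of activated microglia, held more Bcl2a1d than those without, at 196 against 52.9 CPM in replicate 1 and 33.1 against 20.3 CPM in replicate 2. In the other cultured groups, for P2ry12, the Bcl2a1b ratios were 0.925 and 1.19 in vitro, 0.830 and 0.943 at slice 1 day and 0.840 and 0.850 at slice 1 week, and the Bcl2a1d ratios were 0.707 and 0.910 in vitro, 0.476 and 1.25 at slice 1 day and 0.875 in slice 1 week replicate 1. For Gpnmb, the Bcl2a1d ratios were 1.04 and 0.821 in vitro and 1.34 in slice 1 day replicate 2 (6 UMIs in cells with Gpnmb).

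**Figure D5:**
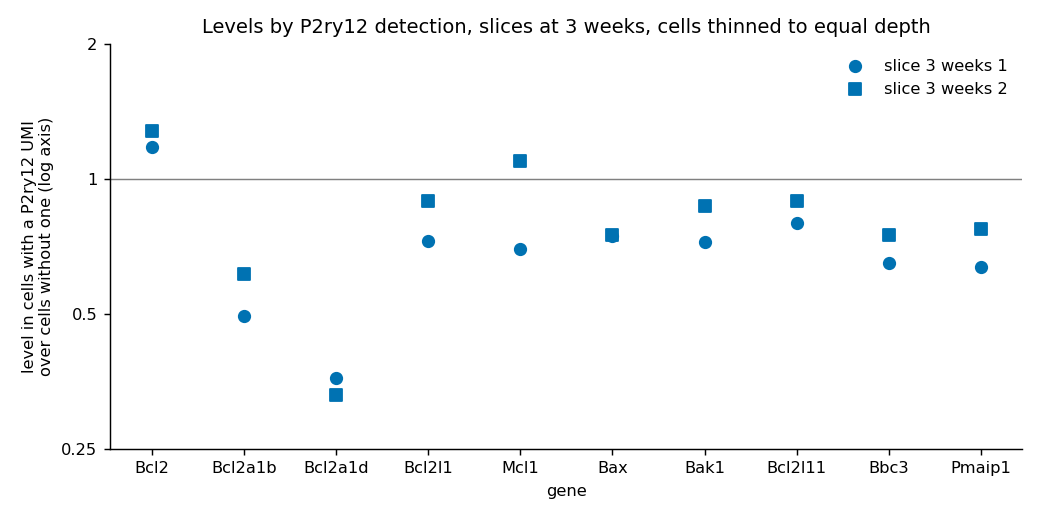
Points give, for each gene (x axis) and both slice 3 weeks libraries (circles and squares), the level in cells with a P2ry12 UMI divided by that in cells without one, on a log axis. Bcl2a1d lies lowest, at 0.360 and 0.329, and Bcl2 is the gene above 1 in both libraries, at 1.18 and 1.28.

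Cells in division were set apart by UMIs of at least 3 of 8 cycling markers, and made up 0.263% and 0.227% of adult cells, 10.3% and 16.9% in vitro, and 5.56% to 17.2% in the slice libraries. These shares were taken at unequal depth, with a median of 3257 and 1858 UMIs in adult against 12858 and 13966 UMIs in vitro, and cycling cells were deeper than the others (18386 against 12520 UMIs in in vitro replicate 1). With cells thinned to 1800 UMIs the shares were 0.207% and 0.419% in adult, 3.52% and 6.04% in vitro and 0.719% to 5.58% in the slice libraries, the lowest from 1 cell of 139. Bak1 was higher in cycling cells in all 6 libraries with at least 20 cells on each side, with ratios from 1.13 to 1.73. Bcl2a1b was lower in 5 of these 6, with ratios from 0.628 to 0.841, and near 1 in slice 1 day replicate 1 (1.04). Pmaip1 was higher in cycling cells at slice 3 weeks (1.72 and 2.72) and in vitro (1.64 and 1.94), but had ratios of 0.390 (7 UMIs in cycling cells) and 1.04 at slice 1 day. With cycling cells left out, Bak1 was no longer called in vitro against slice 3 weeks (0.58, edgeR adjusted p = 0.014, under the fold threshold), and Pmaip1 and Mcl1 were called lower at slice 3 weeks than at slice 1 day (−0.72, adjusted p = 0.0425, and −0.61, adjusted p = 0.0435). No other call of a member changed with that setting.

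Other genes of the death pathway were read from the same fit, as counts of calls and medians with no test of the list. The counts stand against 22.4% of all genes called higher and 28.5% lower in vitro, 24.9% and 25.3% at slice 1 day, 15% and 13.6% at slice 1 week and 17.9% and 17.5% at slice 3 weeks, so that 3 of 14 is close to the share of all genes. Of 12 tested further Bcl2 family genes, 2 were higher and 4 lower in vitro than in adult (median log2 fold change −0.24, against −0.11 over all genes), 3 and 2 at slice 1 day (0.37 against −0.06), 4 and 2 at slice 1 week (0.41 against −0.09) and 2 and 2 at slice 3 weeks (0.18 against −0.03). Bnip3, a mitophagy gene induced by low oxygen, was higher at slice 1 day by 2.80 (SE 0.40, edgeR adjusted p = 0.000226), at slice 1 week by 2.61 (SE 0.41, adjusted p = 0.00101) and at slice 3 weeks by 2.65 (SE 0.40, adjusted p = 0.000548), and was not called in vitro (−0.25, SE 0.38, adjusted p = 0.605). Bid, which links death receptors to Bax, was called lower than adult in vitro (−0.85, SE 0.21, edgeR adjusted p = 0.00561), at slice 1 day (−1.10, SE 0.22, adjusted p = 0.00182), slice 1 week (−1.47, SE 0.30, adjusted p = 0.00493) and slice 3 weeks (−1.64, SE 0.22, adjusted p = 0.000279). Of 14 apoptosome and caspase genes, 3 were higher and 5 lower in vitro, 3 and 3 at slice 1 day, 0 (0 at an unadjusted p under 0.05 by edgeR) and 3 at slice 1 week, and 1 and 2 at slice 3 weeks. Casp8, the initiator caspase of death receptors, was called lower in all 4, by −0.93 (SE 0.15, edgeR adjusted p = 0.000364) in vitro and −1.12 (SE 0.15, adjusted p = 0.000142) at slice 1 day. Cycs, cytochrome c itself, was higher at slice 1 day (1.56, SE 0.16, edgeR adjusted p = 2.69e-05) and in vitro (0.60), and was not called at slice 1 week (0.15) or slice 3 weeks (0.29).

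Of 9 inhibitors of caspases, 1 was higher and 5 lower in vitro than in adult, 1 and 3 at slice 1 day, 1 and 2 at slice 1 week and 2 and 2 at slice 3 weeks. The gene higher in vitro and at slice 1 day was Birc5, survivin, which also acts in mitosis, at 4.88 (SE 0.50, edgeR adjusted p = 1.81e-05) in vitro and 4.08 (SE 0.50, adjusted p = 8.09e-05) at slice 1 day, and it was also called at slice 1 week (4.18) and slice 3 weeks (3.60). The Casp8 inhibitor Cflar was lower, by −1.42 (SE 0.14, edgeR adjusted p = 1.61e-05) in vitro and −1.09 (SE 0.14, adjusted p = 0.000136) at slice 1 day, and also at slice 1 week (−1.02) and slice 3 weeks (−0.93). Of 9 tested death receptor genes, 5 were higher and 2 lower in vitro, 5 and 1 at slice 1 day, 1 and 0 (1 at an unadjusted p under 0.05 by edgeR) at slice 1 week, and 2 and 2 at slice 3 weeks. Ripk1, a kinase at the branch between survival and death, was higher in vitro (1.35, SE 0.15, edgeR adjusted p = 2.61e-05), and Ripk3, which drives necroptosis, at slice 1 day (1.98, SE 0.23, adjusted p = 5.21e-05). Both were called higher in vitro and at slice 1 day (Ripk1 0.62 at slice 1 day, Ripk3 0.76 in vitro), and neither at slice 1 week (0.56 and 0.51) or slice 3 weeks (0.49 and 0.18).

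Bax, Bbc3 and Pmaip1 are known targets of p53. Of 16 tested genes of p53 and its targets, 6 were higher and 3 lower in vitro than in adult, 8 and 2 at slice 1 day, 4 and 2 at slice 1 week and 6 and 3 at slice 3 weeks. The list's median was 0.33 in vitro (−0.11 over all genes), 0.69 at slice 1 day (−0.06), 0.09 at slice 1 week (−0.09) and 0.26 at slice 3 weeks (−0.03). Cdkn1a, the p21 cell cycle inhibitor, was higher at slice 1 day (4.998, SE 0.41, edgeR adjusted p = 7.31e-06) and slice 3 weeks (4.34, SE 0.40, adjusted p = 3.13e-05), and Phlda3, an Akt inhibitor, at slice 1 day (5.92, SE 0.47, adjusted p = 5.9e-06). Both were also called higher in the other cultured groups, Cdkn1a in vitro (2.82) and at slice 1 week (3.12), and Phlda3 in vitro (5.15), at slice 1 week (3.62) and at slice 3 weeks (6.04). Both come from the higher side of the list, and its genes called lower, counted above, are not named here. Of 6 Foxo and Chop factors, 0 were higher in vitro (0 at an unadjusted p under 0.05 by edgeR) and 1 lower, 4 and 2 at slice 1 day, 1 and 0 (0 at an unadjusted p under 0.05) at slice 1 week, and 4 and 2 at slice 3 weeks. Ddit3 (Chop), the death factor of the unfolded protein response, rose at slice 1 day by 1.33 (SE 0.29, edgeR adjusted p = 0.00303) and at slice 3 weeks by 0.93, and was not called in vitro (−0.55) or at slice 1 week (0.35).

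Of 12 NF-kB subunits and feedback targets, 3 were higher and 4 lower in vitro than in adult, 3 and 4 at slice 1 day, 1 and 3 at slice 1 week and 1 and 3 at slice 3 weeks. Nfkb1 was lower than adult throughout, by −1.36 (SE 0.14, edgeR adjusted p = 2.2e-05) in vitro and −1.79 (SE 0.15, adjusted p = 8.39e-06) at slice 1 day. It comes from the lower side of the list, and the genes called higher, counted above, are not named here. Of 5 colony stimulating factor receptors, 2 were higher and 3 lower in vitro, 3 and 2 at slice 1 day, 2 and 2 at slice 1 week and 0 (0 at an unadjusted p under 0.05 by edgeR) and 2 at slice 3 weeks. Csf1r, the survival receptor of microglia, was lower by −1.91 (SE 0.22, edgeR adjusted p = 4.11e-05) in vitro and −2.55 (SE 0.23, adjusted p = 1.14e-05) at slice 1 day, and also at slice 1 week (−1.25) and slice 3 weeks (−1.40), while Csf2rb, the shared chain of the GM-CSF receptor, was higher in vitro (0.74, SE 0.12, adjusted p = 0.000472), at slice 1 day (0.80) and at slice 1 week (1.25), and was not called at slice 3 weeks (0.19). Of 8 mitochondrial partners of Bcl2 proteins, 3 were higher and 1 lower in vitro, 4 and 1 at slice 1 day, 2 and 1 at slice 1 week and 2 and 0 (1 at an unadjusted p under 0.05 by edgeR) at slice 3 weeks. Vdac1, the main channel of the outer membrane, was higher at slice 1 day (1.56, SE 0.17, edgeR adjusted p = 3.4e-05), in vitro (0.77), at slice 1 week (1.35) and at slice 3 weeks (1.06).

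The genes most like each member across the 10 libraries were read as Pearson r of log2 CPM among 3916 or 3917 genes. The libraries share group, depth and composition, so r is given as a description. Bcl2a1b was most like Tmem256 (r = 0.991) and Bax most like Rps27l (r = 0.992). Bak1 was most like Lsm4 (r = 0.992), Pmaip1 like Hspa9 (r = 0.972) and Mcl1 like Hsp90ab1 (r = 0.956). Bcl2a1d was most like Ier2 (r = 0.954), Bcl2l1 like Mfsd10 (r = 0.959) and Bcl2 like Apmap (r = 0.938). The lowest leading values were those of Bcl2l11 with Polr2g (r = 0.921) and Bbc3 with Tmem248 (r = 0.891).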

How the data were processed

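The authors aligned the reads to mm10 with Cell Ranger 1.3.0 (per the submitters' processing notes) and the deposited tables, 1 for each library, hold unnormalized UMI counts of genes in barcodes. Cell Ranger counts reads that map to 1 gene on the sense strand, so near-identical copies lose reads. The methods of the paper also name an aggregation step, and whether the tables precede it is not given in the sources used here. A gene absent from a table was taken as 0, and 51 rows of repeated symbols were summed.

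Barcodes were kept with at most 5% of UMIs from mitochondrial genes, at least 400 genes and at most 30000 UMIs, which left out 578. No doublet caller was run. The limit on UMIs does not replace it, since in the adult and slice libraries 2 cells of median depth together stay below 30000 UMIs. The library was the unit of replication: summed counts of its cells entered 1 edgeR 4.0.16 quasi-likelihood model with a term for each of the 5 groups (TMM factors, filterByExpr at 10 counts), with p-values adjusted by Benjamini and Hochberg over 12157 genes. The biological coefficient of variation was 18.3%. Genes were called at a false discovery rate under 0.05 and a fold change above 1.5. Where a fit left a group with 1 library, the other groups gave the spread. DESeq2 1.42.0 served as an alternative.

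The members and the pathway and marker lists were chosen with earlier results of these data known. The text names all members, Bcl2a1a and, from each list, up to 3 called genes per comparison with the largest log2 fold changes at an average log2 CPM of at least 4, of which a selection is printed. The 3 genes most like each member were ranked at an average log2 CPM of at least 5, and the top gene is printed. Replicate numbers did not pair the samples, with correlations of deviations from −0.10 to 0.09 over 10 pairs of groups. For shares of cells and for classes by P2ry12 or Gpnmb, cells were thinned to 1800 UMIs and shallower ones left out. Sequences are from RefSeq, GRCm38.p6, searched with Python 3.11.15 and aligned with Biopython 1.88.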

Additional observations from a re-analysis of the deposited data

Results flagged for a closer look

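Against the shared adult libraries, among the members, the estimates for Bcl2, Bcl2l11 and Bbc3 had opposite signs in the 2 systems cultured for 3 weeks, and the difference between the systems was itself tested. It was not called for Bbc3 (−0.42, SE 0.21, edgeR adjusted p = 0.141), with −0.23 in vitro and 0.20 at slice 3 weeks against adult. Its signs are not settled either, with 0.14 in vitro for thinned cells, 0.027 in vitro without in vitro replicate 2 and −0.011 at slice 3 weeks with library size alone. Between these systems, in vitro minus slice 3 weeks, Bcl2 differed by −1.94 log2 units (SE 0.24, edgeR adjusted p = 0.000167), with 11.6 and 12.4 CPM in vitro and 43.6 and 48.9 CPM at slice 3 weeks. The Bcl2 estimate in vitro against adult (−0.71) lost its call in 8 of 10 fits without a single library. On UMIs per cell with no scaling for depth it turned to 1.55. Bcl2l11 differed by 0.75 (SE 0.20, edgeR adjusted p = 0.0145), with 26.1 and 26.3 CPM in vitro and 12.7 and 18.1 CPM at slice 3 weeks, and its difference from adult at slice 3 weeks was not called (−0.13, edgeR adjusted p = 0.652). That estimate turned to 0.05 without adult replicate 1, to 0.12 without slice 3 weeks replicate 1 and to 0.21 within the larger study label, so that its sign is not settled. The Bcl2 difference was called without any single library, and the Bcl2l11 difference was lost without in vitro replicate 1 (0.82) or in vitro replicate 2 (0.84) and, by the fold threshold, within the larger study label (0.53).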

How the results depend on the processing

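Of 132 alternative values for the summed Bcl2a1 genes, 125 kept direction and call. The other 7 belong to slice 3 weeks against slice 1 day, which was not called in any of them (0.03 as reported) and turned to −0.044 with library size alone, −0.40 with UMIs per cell, −0.012 without neutrophil-like cells, −0.005 with the study label as a covariate and −0.087 within the larger study label, with a range from −0.091 to 0.15 as single libraries were left out. Of 264 alternative counts of called members, 225 stayed within 1.5 times the reported count and 39 did not. Of 1452 alternative fold changes of the members and Bcl2a1a, 1296 kept direction and call, 82 lost the call, 41 gained it and 33 turned sign. In 8 of the 33 a call stood on one side or the other, and these 8 turned when UMIs per cell were taken with no scaling for depth, where the median of all genes moved to 2.04 in vitro, 1.49 at slice 1 day, 1.10 at slice 1 week and 1.05 at slice 3 weeks against adult. There the log2 differences from adult became 1.55 for Bcl2, 1.07 for Bcl2l1 and 1.98 for Bbc3 in vitro, 1.29 for Bcl2l1 at slice 1 day, 0.46 for Bcl2l1 and 0.23 for Bcl2a1a at slice 1 week and 0.91 for Bcl2l11 at slice 3 weeks, and Bcl2l1 in vitro against slice 3 weeks became 0.34.

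The other 25 were called neither as reported nor in the alternative. With UMIs per cell they were Bcl2l11 (0.74) and Bbc3 (0.93) at slice 1 week, Bcl2l1 (0.73) and Bcl2a1a (0.54) at slice 3 weeks, Bcl2a1d (0.25) and Bbc3 (0.66) in vitro against slice 3 weeks, and Bcl2a1b (−0.22) at slice 3 weeks against slice 1 day. With thinned cells they were Bbc3 in vitro (0.14) and at slice 1 week (0.49), and Bcl2 (−0.33) and Bcl2l11 (−0.01) at slice 1 day. With library size alone they were Bcl2 at slice 1 day (−0.035) and Bbc3 at slice 3 weeks (−0.011), and with the study label as a covariate Bcl2 at slice 1 day (−0.035). Within the larger study label they were Bcl2 at slice 1 day (−0.30) and slice 1 week (−0.15), Bcl2l11 at slice 3 weeks (0.21) and Bcl2a1d in vitro against slice 3 weeks (0.10). As single libraries were left out, values ran from −0.31 to 0.027 for Bbc3 in vitro, −0.25 to 0.57 for Bcl2 at slice 1 day, −0.11 to 0.71 for Bcl2 at slice 1 week, −0.38 to 0.12 for Bcl2l11 at slice 3 weeks, −1.27 to 0.19 for Bcl2a1d in vitro against slice 3 weeks and −0.46 to 0.12 for Bcl2l1 at slice 3 weeks against slice 1 day.

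With UMIs per cell, members called higher and lower were 10 and 0 in vitro against adult (80.3% and 4.7% of all genes), 0 were lower at slice 1 week (1.35%), 1 was lower in vitro than at slice 3 weeks (5.54%), and 0 were higher and 4 lower at slice 3 weeks than at slice 1 day (2.7% and 17.0%). With library size alone, where the median of all genes was −0.42 in vitro and −0.30 at slice 1 week, 3 members were higher in vitro (16.6% of all genes) and 2 at slice 1 week (12.5%), 1 was lower at slice 3 weeks (25.2%), and 2 were higher in vitro than at slice 3 weeks (10.7%).

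In vitro against adult, DESeq2, no filter on low counts, all barcodes and cells thinned to 1800 UMIs each left 1 member lower in place of 2, where 25.4%, 18.1%, 25.6% and 23.3% of all genes were. At slice 1 week, thinned cells gave 2 higher and 0 lower (9.13% and 6.78% of all genes), and the study label as a covariate gave 0 lower (12.8%). Without both libraries of the smaller study label, 1 member was lower at slice 3 weeks (16.1%). Without cycling cells, 4 were lower at slice 3 weeks than at slice 1 day (12.9%). Leaving out single libraries gave 3 to 7 higher and 1 to 2 lower in vitro, 2 to 5 higher and 0 to 1 lower at slice 1 week, 0 to 1 lower at slice 3 weeks, 2 to 4 higher in vitro than at slice 3 weeks, and 0 to 1 higher and 0 to 4 lower at slice 3 weeks than at slice 1 day. The cause of these changes was not tested. The replicate block changed 1 call, with Bcl2a1d lower at slice 3 weeks than at slice 1 day (−0.97, edgeR adjusted p = 0.0325), which made 3 lower in place of 2.

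The planned removal of neutrophil-like cells by 3 markers with a UMI was not run, since it would have taken 1009 of 1014 cells of slice 1 day replicate 2 and all 148 of slice 1 week replicate 1. A limit of 2% of UMIs in those markers, and the share of cycling cells after thinning, were chosen after seeing the data. Slice 1 week rests on 148 and 61 cells and limits what can be called there.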
